A study of Saccharomyces cerevisiae with 12 samples.

Results

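The 7 genes of histidine synthesis in budding yeast, HIS1 to HIS7, were taken by systematic name and followed across 4 strains by RNA sequencing. All 7 were in the deposited table of 5935 genes, and all 7 passed the filter on low values that left 5820 genes for testing. The deletion strains lacked SNF5, SNF2 or SWP82, each replaced by kanMX4, and carried a FLAG tag joined to LEU2 on SNF6; the wild type carried the same kind of tag on SNF2. SNF5, SNF2 and SWP82 encode subunits of SWI/SNF, the complex that uses ATP to remodel nucleosomes, and Snf2 is its ATPase. Every strain was BY4741 of mating type a and, per the labels, also carried his3delta_1, leu2delta_0, met15delta_0 and ura3delta_0, so the labels give a disrupted HIS3 to all 4 groups. Each group had 3 libraries from independent log-phase cultures grown at 30 °C to an OD600 between 0.75 and 1.0. The growth medium is not given in the labels.

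The total per library was 9012746 to 12875057 reads on genes, of which a member had 417 to 5078. Values are scaled CPM (CPM divided by a scaling factor for library composition), with mean ± SD over n = 3 libraries a strain. The deleted genes had 2 reads (SNF5), 22 reads (SNF2) and 0 reads (SWP82) over the 3 libraries of their own strains, against 3372, 3319 and 2030 reads in the wild type. The 7 MATa marker genes summed to 1905 to 1975 scaled CPM in the snf5 deletion libraries, 2102 to 2262 in the snf2 deletion and 3905 to 4809 in the swp82 deletion, against 3577 to 3903 in the wild type. The 4 MATalpha genes summed to 77.3 to 95.2 in all 12 libraries, most of it SAG1. MF(ALPHA)1 was at a mean of 1.05 or less in every strain, and STE3 at 12.7, 9.50 and 2.93 in the snf5, snf2 and swp82 deletions, against 1.56 in the wild type. These marker levels move with the strains compared, and their part in the results was not tested. LEU2, which the labels give for all 4 strains, had 0 reads in the snf2 and the swp82 deletion, against 2407 reads in the snf5 deletion and 1908 in the wild type. LEU2 therefore goes with any difference that sets either of those strains against the snf5 deletion or the wild type, and its part in the results was not tested. The tagged subunit differs between every deletion and the wild type, so tag and deletion cannot be told apart there. Replicates 1 and 3 of the snf5 deletion stood furthest apart (chi-square per degree of freedom of 79.3, the highest of the 12 pairs of replicates). Replicates 1 and 2 stood at 25.7 and replicates 2 and 3 at 26.3, so these values do not show which library is the odd one. Calls of members that change without replicate 3 are given with and without it.

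Histidine is built from ATP and phosphoribosyl pyrophosphate (PRPP) in a linear pathway whose genes are scattered over the yeast chromosomes. Most of these genes are classical targets of general amino acid control, in which the activator Gcn4 binds motifs with the core TGACTC, and Bas1 with Pho2 acts at several of them and at the adenine genes. Gcn4 is known to recruit SWI/SNF to some of its targets. HIS1 encodes ATP phosphoribosyltransferase, which opens the pathway and is inhibited by histidine, and HIS4 encodes a multifunctional enzyme that also carries out the closing oxidation of histidinol. HIS6 encodes an isomerase, HIS7 the imidazole glycerol-phosphate synthase that releases AICAR to purine synthesis, HIS3 the dehydratase that follows it, HIS5 the aminotransferase and HIS2 the histidinol phosphatase. The allele his3-delta1 is known to lack an internal stretch of the coding sequence and to make no functional enzyme. Values per gene do not show which allele gave the reads, so the HIS3 label was not checked here, and the LEU2 reads above go against the labels in 2 strains.

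In the RefSeq annotation of assembly R64, of which the submitters' build sacCer3 is the UCSC copy, every member is a single coding exon with no overlapping annotated gene. HIS1 (YER055C) lies on chromosome V from 264892 to 265785, HIS4 (YCL030C) on III from 65934 to 68333, and HIS6 (YIL020C) on IX from 314035 to 314820. HIS7 (YBR248C) lies on II from 714807 to 716465, HIS3 (YOR202W) on XV from 721946 to 722608, HIS5 (YIL116W) on IX from 142928 to 144085, and HIS2 (YFR025C) on VI from 203743 to 204750. HIS3 and HIS5 are on the plus strand and the other 5 on the minus strand. The region from 250 bases before to 50 bases after the coding start was searched for TGACTC on both strands in 6 members (HIS2, HIS3, HIS4, HIS5, HIS6 and HIS7). It was found before 5 of 6, against 7.96% of 6020 protein-coding genes, and 2 or more matches stood before 2 of 6, against 0.515%. TGACTC was also found before 8 of 11 adenine, 5 of 9 arginine, 3 of 7 lysine and 5 of 12 aromatic genes followed below. Of these, 4 adenine genes and 1 gene each of the arginine, lysine and aromatic lists had 2 or more matches. In the other lists below it stood before 1 of 6 regulator, 1 of 6 uptake and use and 0 of 5 PRPP synthetase genes. The longer TGACTCA, which contains the shorter motif, was found before 3 of 6 members and 2.72% of all genes. A match is a description of these letters and not of binding in these cells.

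The regions of 4 members are given in the direction of the gene, because HIS4 had the largest fall of the 7 in the snf2 deletion, HIS7 has as many matches as HIS4 and no called difference, HIS3 is the marker labelled as disrupted and HIS2 is the member of the 6 with no match. Capitals mark TGACTC or, where it lies on the opposite strand, its reverse complement. The regions are chrIII:68284-68583 (minus) for HIS4, chrII:716416-716715 (minus) for HIS7, chrXV:721696-721995 (plus) for HIS3 and chrVI:204701-205000 (minus) for HIS2.
HIS4: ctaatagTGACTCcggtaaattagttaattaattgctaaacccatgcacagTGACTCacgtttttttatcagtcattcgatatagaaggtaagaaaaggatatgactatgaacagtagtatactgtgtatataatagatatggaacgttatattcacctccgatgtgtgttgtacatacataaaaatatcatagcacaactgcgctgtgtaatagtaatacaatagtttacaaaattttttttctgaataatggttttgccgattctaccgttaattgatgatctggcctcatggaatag
HIS7: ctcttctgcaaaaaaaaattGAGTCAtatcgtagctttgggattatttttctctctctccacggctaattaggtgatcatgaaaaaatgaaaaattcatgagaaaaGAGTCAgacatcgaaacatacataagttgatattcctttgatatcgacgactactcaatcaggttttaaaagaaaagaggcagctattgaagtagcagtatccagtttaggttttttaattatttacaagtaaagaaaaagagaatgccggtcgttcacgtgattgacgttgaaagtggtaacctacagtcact
HIS3: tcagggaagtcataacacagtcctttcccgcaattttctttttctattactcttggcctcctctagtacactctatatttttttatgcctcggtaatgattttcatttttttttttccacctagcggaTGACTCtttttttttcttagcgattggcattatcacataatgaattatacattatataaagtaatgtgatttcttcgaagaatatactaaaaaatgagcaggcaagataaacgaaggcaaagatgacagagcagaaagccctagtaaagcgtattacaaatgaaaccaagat
HIS2: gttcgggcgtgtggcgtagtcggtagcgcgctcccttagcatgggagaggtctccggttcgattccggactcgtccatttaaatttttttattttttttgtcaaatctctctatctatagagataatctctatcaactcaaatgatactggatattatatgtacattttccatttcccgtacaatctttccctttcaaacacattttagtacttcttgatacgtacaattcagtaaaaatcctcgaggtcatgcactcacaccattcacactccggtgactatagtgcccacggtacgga
With the first coding base counted as 0, the matches began at -243 and -199 in HIS4, the second within TGACTCA. HIS7 had them at -230 and -144, HIS3 at -122, HIS5 at -202 and HIS6 at -94. The region before HIS2 also holds an annotated tRNA gene, and that before HIS3 reaches the first coding bases of MRM1, which runs in the opposite direction.

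**Figure D1:**
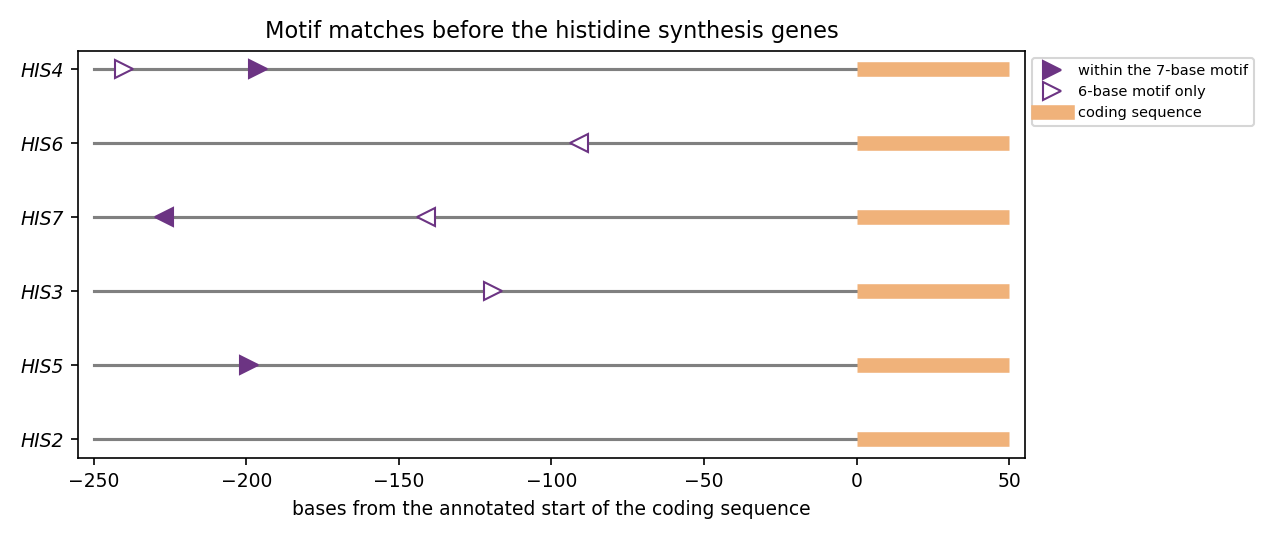
Positions of TGACTC matches from 250 bases before to 50 bases after the coding start of the 6 members searched, in pathway order. Arrowheads point along the strand of the match; filled ones lie within TGACTCA. HIS4 and HIS7 have 2 matches each and HIS2 has 0.

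HIS4 and HIS1, the genes of the opening steps, were lower in the snf2 deletion. HIS4 had 65.3, 73.4 and 67.9 scaled CPM in the snf2 deletion libraries, against 119, 140 and 142 in the wild type. All 3 deletion libraries lay below all 3 wild-type libraries, and the mean of 68.9 ± 4.14 was 51.5% of the wild-type mean of 134 ± 12.8. The log2 fold change was -0.94 ± 0.21 (SE; limma adjusted p = 0.00653), and the call held without any 1 of the 6 libraries (adjusted p up to 0.0285). In bulk libraries, less RNA in every cell and fewer cells with the RNA cannot be told apart. HIS1 had 222, 253 and 243 scaled CPM in the snf2 deletion, against 321, 352 and 369 in the wild type, again with no overlap. Its mean of 239 ± 15.9 was 68.9% of the wild-type 347 ± 24.1 (log2 fold change -0.53 ± 0.16, limma adjusted p = 0.0285). The HIS1 call was lost without any 1 snf2 deletion library or wild-type replicate 2 or 3 (adjusted p up to 0.0954) and with total-count scaling (adjusted p = 0.0510).

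In the snf5 deletion the level of both genes depended on 1 library. HIS4 had 88.3 and 93.1 scaled CPM in replicates 1 and 2 and 163 in replicate 3. The first pair lay below every wild-type library and the third above every one, and the mean of 115 ± 42.1 was not called against the wild type (-0.27 ± 0.21, limma adjusted p = 0.377). Without replicate 3 the log2 fold change was -0.55 and HIS4 was called lower (adjusted p = 0.0138). HIS1 showed the same split, at 295 and 306 in replicates 1 and 2 and 471 in replicate 3. Its mean of 357 ± 99.0 was not called against the wild type (0.0089 ± 0.16, adjusted p = 0.972), nor without replicate 3 (-0.21, adjusted p = 0.142).

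The swp82 deletion libraries of both genes overlapped those of the wild type. HIS4 had 92.9, 127 and 136 scaled CPM there (-0.19 ± 0.21, limma adjusted p = 0.582) and HIS1 had 278, 344 and 354 (-0.10 ± 0.16, adjusted p = 0.715). The snf2 deletion was lower than the swp82 deletion in HIS4 (-0.76 ± 0.21, adjusted p = 0.0145) and in HIS1 (-0.43 ± 0.16, adjusted p = 0.0463). The HIS4 call in that comparison was lost without swp82 deletion replicate 2 or 3 (adjusted p up to 0.0591). The HIS1 call was lost without any 1 snf2 deletion library or swp82 deletion replicate 2 or 3 (adjusted p up to 0.142), with total-count scaling (0.212) and with upper-quartile factors (0.0584). Against the snf2 deletion, the snf5 deletion was higher in HIS1 (0.54 ± 0.16, adjusted p = 0.0483), and HIS4 missed the threshold (0.67 ± 0.21, adjusted p = 0.0609). That HIS1 call was lost without any 1 snf2 deletion library or snf5 deletion replicate 2 or 3 (adjusted p up to 0.160), and in a fit of those 2 strains alone (0.137). HIS4 passed the threshold there with edgeR's quasi-likelihood test (adjusted p = 0.0478), DESeq2 (0.00862), upper-quartile factors (0.0481) and without snf5 deletion replicate 1 (0.0264). In the order of the means, HIS4 ran from the wild type through the swp82 and snf5 deletions to the snf2 deletion, and none of these neighbouring strains differed at the threshold.

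**Figure D2:**
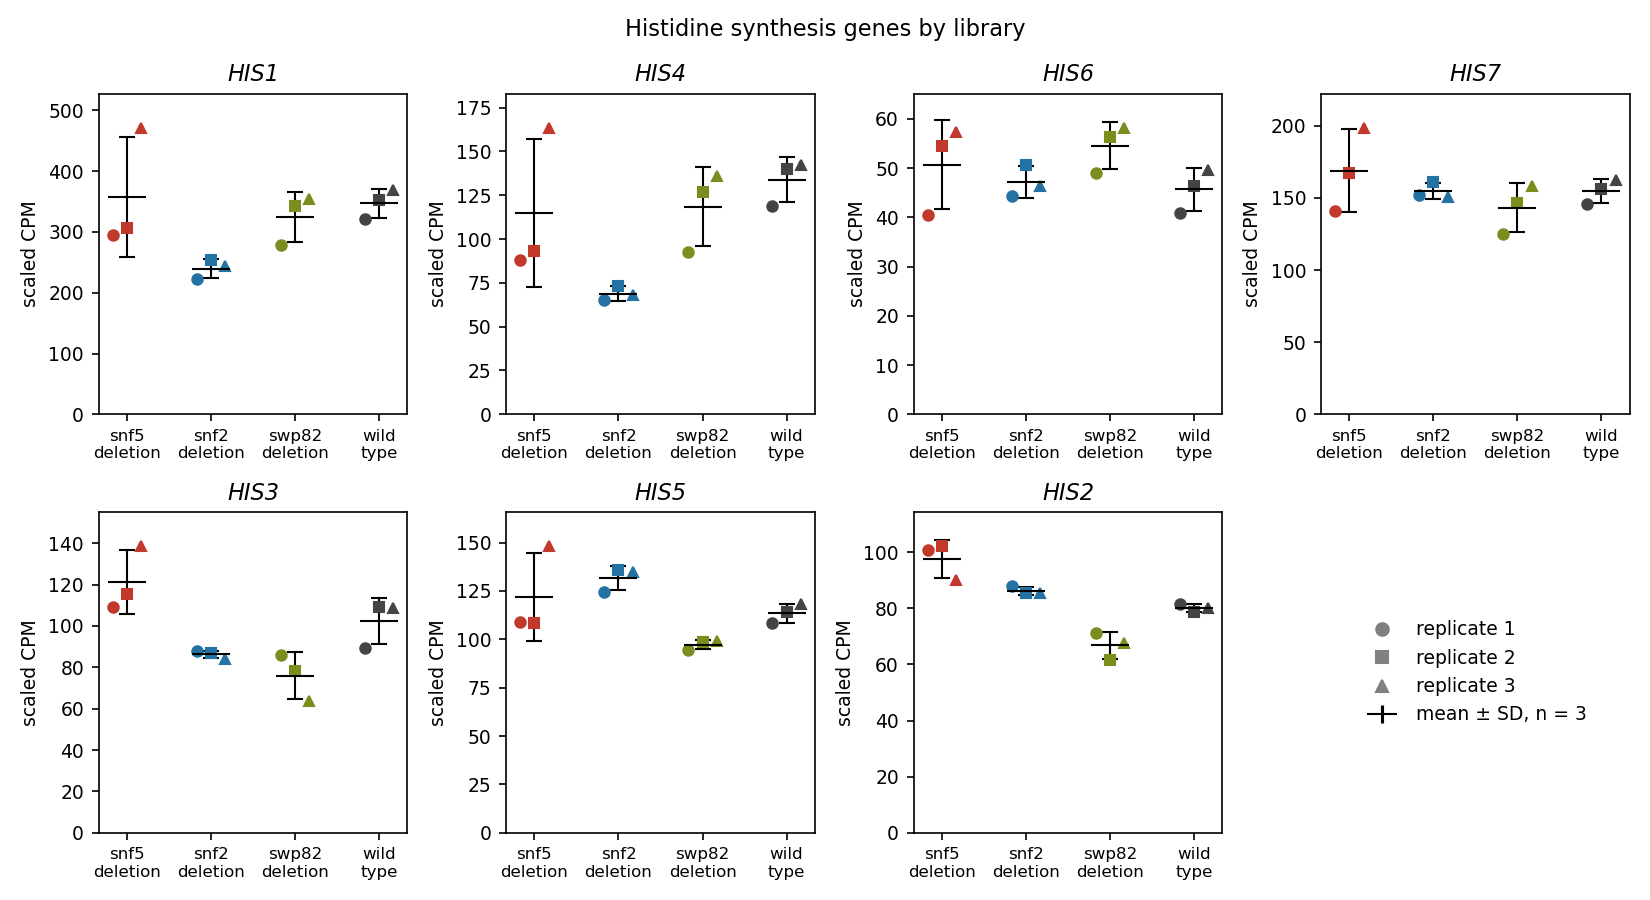
Scaled CPM of the 7 members in each library of the snf5, snf2 and swp82 deletions and the wild type, in pathway order. Symbols give the replicate number, and bars give mean ± SD of 3 libraries. HIS4 and HIS1 sit lowest in the snf2 deletion, at 68.9 and 239 scaled CPM, and replicate 3 of the snf5 deletion is the highest of that strain in 6 of 7 members.

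HIS6 and HIS7, the isomerase and synthase genes, were called in 0 of 6 comparisons between strains in the fit as designed. HIS7 averaged 169 ± 28.9 scaled CPM in the snf5 deletion, 155 ± 5.72 in the snf2 deletion, 143 ± 16.8 in the swp82 deletion and 155 ± 8.21 in the wild type. Its log2 fold change in the snf2 deletion against the wild type was -0.00055, with a 95% confidence interval of -0.26 to 0.26, and the strains overlapped. Between the snf5 and swp82 deletions HIS7 was called with the replicate block (limma adjusted p = 0.0393), with total-count scaling (0.00979), with upper-quartile factors (0.0401) and without snf5 deletion replicate 1 (0.0218), though not in the fit as designed (0.23 ± 0.12, adjusted p = 0.132). Between the snf2 and swp82 deletions HIS7 was called only with total-count scaling (limma adjusted p = 0.0178, against 0.434 in the fit as designed). HIS6, at 50.7 ± 9.03, 47.1 ± 3.23 and 54.5 ± 4.82 scaled CPM in the snf5, snf2 and swp82 deletions and 45.7 ± 4.45 in the wild type, was lowest in the wild type. The highest mean was 1.19 times the lowest for HIS6 and 1.18 times for HIS7, against 1.94 times for HIS4.

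The means of HIS3 and HIS2, like that of HIS7, were highest in the snf5 deletion and lowest in the swp82 deletion. HIS3 had 109, 116 and 139 scaled CPM in the snf5 deletion, 87.8, 86.8 and 84.2 in the snf2 deletion, 86.1, 78.1 and 63.6 in the swp82 deletion, and 89.3, 109 and 109 in the wild type. All 3 snf5 deletion libraries lay above all 6 libraries of the other deletions and overlapped the wild type. HIS3 was higher in the snf5 than in the swp82 deletion (0.67 ± 0.12, limma adjusted p = 0.00149), a call that held without any 1 library. It was also higher in the snf5 than in the snf2 deletion (0.48 ± 0.12, adjusted p = 0.0278), though without any 1 snf2 deletion library or snf5 deletion replicate 2 or 3 that call was lost (adjusted p up to 0.0896). Between the snf2 and swp82 deletions HIS3 was called, higher in the snf2 deletion, only with total-count scaling (limma adjusted p = 0.0113, against 0.215 in the fit as designed). Relative to the wild type, HIS3 was not called at 118% of its mean in the snf5 deletion (adjusted p = 0.169) or at 84.2% in the snf2 deletion (0.171). In a fit of the snf2 deletion and the wild type alone, HIS3 was called lower (0.0379). The mean in the swp82 deletion was 74.1% of that in the wild type (-0.43 ± 0.12, adjusted p = 0.0746). With the replicate block the swp82 deletion was called lower in HIS3 (limma adjusted p = 0.0490), as it was without replicate 1 of that strain (0.0316). The same call was made with total-count scaling (limma adjusted p = 0.0345) and with DESeq2 (adjusted p = 0.0218).

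HIS2 had 101, 102 and 90.0 scaled CPM in the snf5 deletion, 87.9, 85.3 and 85.5 in the snf2 deletion, 71.1, 61.5 and 67.8 in the swp82 deletion, and 81.7, 78.7 and 80.1 in the wild type. No neighbouring strains in the order snf5 deletion, snf2 deletion, wild type and swp82 deletion overlapped. The snf5 deletion, at 97.6 ± 6.63, was 122% of the wild type at 80.2 ± 1.49 (0.28 ± 0.065, limma adjusted p = 0.00821), and the call held without any 1 library (adjusted p up to 0.0366). The swp82 deletion, at 66.8 ± 4.87, was 83.3% of the wild type and just missed the threshold (-0.26 ± 0.065, limma adjusted p = 0.0533). It passed with the replicate block (0.0276), with total-count scaling (0.0354) and without swp82 deletion replicate 1 (0.0260). It also passed with DESeq2 (adjusted p = 0.0172). Set against the swp82 deletion, HIS2 was higher in the snf5 deletion (0.54 ± 0.065, adjusted p = 9.55e-05) and in the snf2 deletion (0.37 ± 0.065, adjusted p = 0.00118), without any 1 library as well. The snf2 deletion at 107.6% of the wild type was not called (0.10 ± 0.065, adjusted p = 0.264), but it was called higher with total-count scaling (0.25, adjusted p = 0.0288).

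HIS5, the aminotransferase gene, was lowest in the swp82 deletion. It had 109, 108 and 148 scaled CPM in the snf5 deletion, 124, 136 and 135 in the snf2 deletion, 94.5, 98.4 and 99.1 in the swp82 deletion, and 108, 114 and 118 in the wild type. The swp82 deletion libraries lay below all 9 others. HIS5 was higher in the snf2 than in the swp82 deletion (0.43 ± 0.10, limma adjusted p = 0.00661), and the call held without any 1 library. It was also higher in the snf5 than in the swp82 deletion (0.31 ± 0.10, adjusted p = 0.0342), which was lost without any 1 swp82 deletion library (adjusted p up to 0.0762) and in a fit of those 2 strains alone (0.128). No deletion differed from the wild type at the threshold: the swp82 deletion was at 85.7% (adjusted p = 0.217) and the snf2 deletion at 116% (0.154). The snf2 deletion passed with total-count scaling (0.0110), which moves the median of all genes there by 0.13, and in a fit of those 2 strains alone (0.0140). Between the snf5 and snf2 deletions HIS5 was not called (-0.13 ± 0.10, adjusted p = 0.498), but without snf5 deletion replicate 3 it was called lower in the snf5 deletion (0.0200), and HIS2 higher (0.0467, against 0.108 with all libraries). In the snf2 deletion every HIS5 and HIS2 library lay above every wild-type library, while every HIS4, HIS1 and HIS3 library lay below. Of all genes tested, 52.9% had no overlap in this comparison. Among these members only HIS4 and HIS1 were called there in the fit as designed.

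Counted over the pathway, the snf5 deletion had 1 member called higher (HIS2) and 0 lower than the wild type, where 29.3% of all genes tested were called, 14.8% higher and 14.5% lower. The snf2 deletion had 0 called higher and 2 lower (HIS4 and HIS1), beside 27.7% of all genes, 13.6% higher and 14.1% lower. The swp82 deletion had 0 of 7 called by limma, with 2 at an unadjusted p under 0.05, 0 called by edgeR's quasi-likelihood test and 2 by DESeq2, beside 3.49% of all genes, 1.41% higher and 2.08% lower. DESeq2 called 8.78% of all genes in that comparison, 4.79% higher and 3.99% lower. With the replicate block 2 members were called lower there (HIS2 and HIS3), beside 13.5% of all genes, 6.68% lower. The snf5 against the snf2 deletion gave 2 members higher and 0 lower, beside 12.5% of all genes, 5.79% higher and 6.68% lower. The snf5 against the swp82 deletion gave 3 higher and 0 lower, beside 41.9% of all genes, 20.4% higher and 21.5% lower, and with the replicate block 4 higher and 0 lower, beside 50.5% of all genes, 23.6% higher and 27% lower. The snf2 against the swp82 deletion gave 2 higher and 2 lower, beside 43.5% of all genes, 21.7% higher and 21.8% lower. Nothing particular to the pathway is read from these counts of 7 genes. Strains did not overlap for 1 member between the snf5 deletion and the wild type (41.4% of all genes), 5 between the snf2 deletion and the wild type (52.9%) and 3 between the swp82 deletion and the wild type (31.1%). Between deletions they did not overlap for 4 members with the snf5 and snf2 pair (32.3%), 3 with the snf5 and swp82 pair (43.5%) and 4 with the snf2 and swp82 pair (57.6%). The comparisons with the wild type share its 3 libraries. The median log2 fold change of the members relative to the wild type was 0.11 with SNF5 deleted, -0.00055 with SNF2 deleted and -0.19 with SWP82 deleted. The median of all genes was -0.013, -0.0040 and 0.0023 in the same comparisons. In the swp82 deletion 6 of 7 fold changes were negative, HIS6 being the exception. The authors' deposited filtered table of 506 genes holds 0 of the 7 members.

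**Figure D3:**
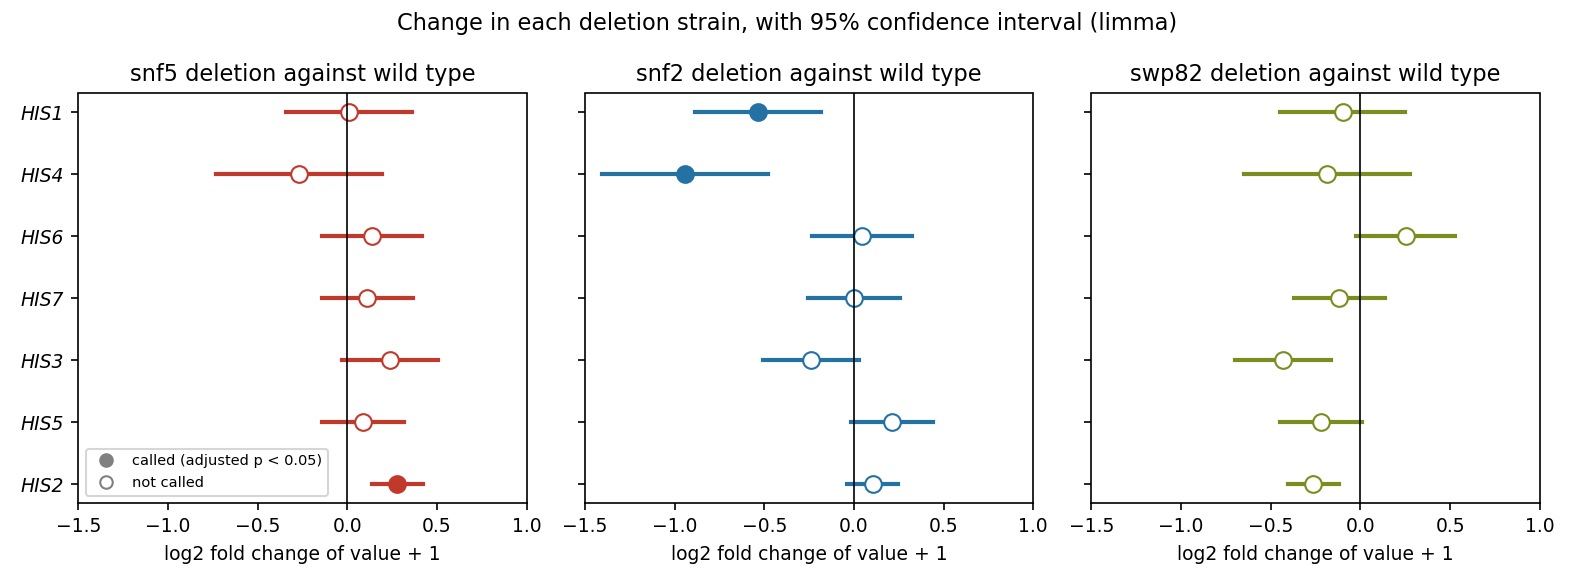
Log2 fold change of each member against the wild type in the snf5, snf2 and swp82 deletions, with 95% confidence intervals from limma; filled points passed an adjusted p of 0.05. HIS4 at -0.94 and HIS1 at -0.53 in the snf2 deletion and HIS2 at 0.28 in the snf5 deletion are the filled points.

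The same replicate was lowest for several members. Replicate 1 was the lowest library for HIS1, HIS4 and HIS6 in 4 of 4 strains, and for HIS7 and HIS5 in 3 of 4. HIS2 never had its lowest library there. In the snf5 deletion, replicate 3 was the highest library of 6 members and the lowest of HIS2. The coefficient of variation in that strain was 36.6% for HIS4 and 27.7% for HIS1, against 6.01% and 6.66% in the snf2 deletion and 9.59% and 6.95% in the wild type. Across the 12 libraries HIS1 and HIS4 tracked each other (Pearson r = 0.96 on the log2 scale, a description over libraries that share strains and replicate numbers), and r was 0.98 without replicate 3 of the snf5 deletion. HIS3 with HIS2 reached 0.67, and 0.69 without that library. HIS7 with HIS5 reached 0.68, and 0.48 without it. HIS4 with HIS2 was -0.37, and -0.52 without it.

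**Figure D4:**
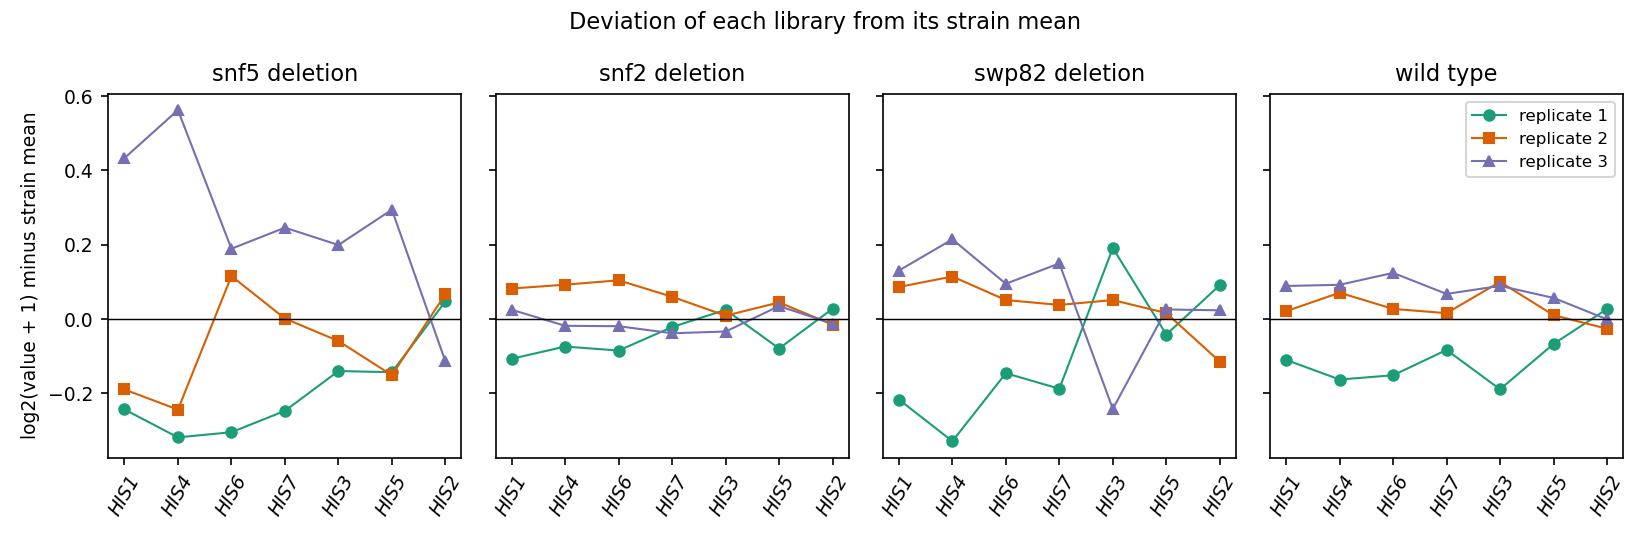
Deviation of each library from the mean of its strain, on the log2(value + 1) scale, for the 7 members in the 4 strains; lines join the values of 1 library. In the snf5 deletion replicate 3 lies above the other libraries in 6 of 7 members, and in all 4 strains replicate 1 is lowest for HIS1, HIS4 and HIS6.

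Per kilobase of annotated coding sequence, HIS1 had the highest mean level and HIS4 the lowest in every strain. HIS1 stood at 400 ± 111, 268 ± 17.8 and 364 ± 46.0 scaled CPM per kilobase in the snf5, snf2 and swp82 deletions and 389 ± 27 in the wild type. HIS4, at 47.9 ± 17.5, 28.7 ± 1.73 and 49.3 ± 9.41 in the deletions and 55.7 ± 5.34 in the wild type, was close to HIS6 in the wild type, at 58.1 ± 5.66. HIS3 ranked next to HIS1 in all 4 strains with its level taken over the full annotated length, which includes the stretch that the labelled allele lacks. The other members lay between 58.1 and 98.0 scaled CPM per kilobase in the wild type.

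Of 6 genes for known regulators of the pathway, 1 was called against the wild type in the snf5 deletion, 1 in the snf2 deletion and 0 in the swp82 deletion (limma; 0 at an unadjusted p under 0.05, 0 by edgeR, 0 by DESeq2 and 0 with the replicate block). Of all genes, 29.3%, 27.7% and 3.49% were called in these comparisons. The regulator was PHO2, which encodes the partner of Bas1, at a log2 fold change of 0.23 ± 0.056 with SNF5 deleted (limma adjusted p = 0.0115) and 0.33 ± 0.056 with SNF2 deleted (0.00126). The first of these calls was lost without wild-type replicate 2 (adjusted p = 0.0505). GCN4 averaged 1100 ± 148, 916 ± 22.5 and 1068 ± 55.7 scaled CPM in the snf5, snf2 and swp82 deletions and 1057 ± 46.7 in the wild type, and was not called in any of these (adjusted p = 0.701, 0.0960 and 0.925). BAS1, RAP1, ABF1 and the Gcn4-pathway kinase gene GCN2 were not called against the wild type either. Gcn4 protein is known to be set mainly by translation, which mRNA levels do not show.

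Of 6 genes of histidine uptake and use, 1 was called higher and 2 lower in the snf5 and likewise in the snf2 deletion, and 0 higher and 1 lower in the swp82 deletion. The shares of all genes were 14.8% higher and 14.5% lower in the snf5, 13.6% and 14.1% in the snf2 and 1.41% and 2.08% in the swp82 deletion. AGP1, a broad amino acid permease, was lower in all 3 deletions, by log2 fold changes of -1.31 ± 0.10 without SNF5 (limma adjusted p = 4.28e-06), -1.57 ± 0.10 without SNF2 (1.08e-06) and -0.46 ± 0.10 without SWP82 (0.0376). The last call was lost without swp82 deletion replicate 2 or 3 or any 1 wild-type library (adjusted p up to 0.153) and in a fit of those 2 strains alone (0.0750). TAT1, a permease that also carries histidine, fell to 153 ± 31.4 in the snf5 and 165 ± 8.47 in the snf2 deletion, against 427 ± 25.6 in the wild type. The general amino acid permease gene GAP1 was higher, at 67.6 ± 14 in the snf5 and 65.8 ± 5.51 in the snf2 deletion, against 27.4 ± 0.842 in the wild type. HIP1, the high-affinity histidine permease, HTS1, the histidyl-tRNA synthetase, and the vacuolar carrier gene VBA1 were not called in any deletion against the wild type. HIP1 stood at 186 ± 25.5, 171 ± 7.24 and 219 ± 30.8 scaled CPM in the snf5, snf2 and swp82 deletions and 192 ± 8.14 in the wild type.

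The 5 genes of PRPP synthetase had 1 member called lower in the snf5 deletion (PRS2, -0.38 ± 0.13, limma adjusted p = 0.0479) and 1 in the snf2 deletion (PRS5, -0.35 ± 0.11, adjusted p = 0.0378), beside 14.5% and 14.1% of all genes called lower. The PRS2 call was lost without any of snf5 deletion replicates 1 and 2 or the wild-type libraries (adjusted p up to 0.143), in a fit of the 2 strains alone (0.0534) and with total-count scaling (0.0831), and the PRS5 call without any 1 snf2 deletion library or wild-type replicate 2 or 3 (up to 0.122) and with total-count scaling (0.118). Without snf5 deletion replicate 3, PRS5 was also called lower in the snf5 deletion (-0.40 ± 0.11, limma adjusted p = 0.0175, against -0.30 ± 0.11 and 0.0661 with all libraries). In the swp82 deletion all 5 fold changes were positive, with PRS1 at 0.38, PRS2 and PRS4 at 0.29, PRS3 at 0.28 and PRS5 at 0.15. Of these 5, 0 were called by limma (2 at an unadjusted p under 0.05, 0 by edgeR and 0 by DESeq2), beside 3.49% of all genes. Without swp82 deletion replicate 1, PRS1 and PRS2 were called higher there. With the replicate block PRS1 (adjusted p = 0.0340), PRS2 (0.0499) and PRS3 (0.0490) were, beside 6.77% of all genes called higher. Of 11 genes of adenine synthesis and AICAR use, ADE8 was lower in the snf5 (-0.74 ± 0.12, adjusted p = 0.00110) and snf2 deletions (-0.61 ± 0.12, adjusted p = 0.00403), and ADE3 higher in the snf5 deletion (0.35 ± 0.058, adjusted p = 0.00110), beside 29.3% and 27.7% of all genes called in the snf5 and snf2 comparisons. By limma 0 of the 11 were called in the swp82 deletion (0 at an unadjusted p under 0.05, 0 by edgeR, 0 by DESeq2 and 0 with the replicate block), beside 3.49% of all genes. ADE13 had the smallest p there (0.29 ± 0.14, limma adjusted p = 0.228). TGACTC was found before 8 of these 11 genes.

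Other amino acid pathways under Gcn4 were followed for comparison. Of 9 arginine genes, 5 were called higher and 0 lower in the snf5 deletion (median log2 fold change 0.76), 0 in the snf2 deletion by limma (median -0.19; 2 at an unadjusted p under 0.05, 0 by edgeR and 0 by DESeq2), and 0 higher and 3 lower in the swp82 deletion (median -0.57). Of all genes, 14.8% were called higher and 14.5% lower in the first comparison, 27.7% in the second, and 1.41% higher and 2.08% lower in the third. The 3 in the swp82 deletion became 1 without swp82 deletion replicate 2 or 3 or any 1 wild-type library. They became 4 with the replicate block, beside 13.5% of all genes called. ARG1 stood at 365 ± 195 scaled CPM with SNF5 deleted and 19.9 ± 3.30 with SWP82 deleted, against 85.7 ± 11.7 in wild-type cells, and ARG5,6 rose by 1.24 ± 0.19 in the snf5 deletion. ARG3 (1.84 ± 0.35) and ARG7 (0.78 ± 0.16) also rose there. ARG1 had 222, 286 and 588 scaled CPM in snf5 deletion replicates 1, 2 and 3. Without replicate 3 the same 4 genes were called higher, at 1.55 ± 0.20 for ARG1, 0.97 ± 0.11 for ARG5,6, 1.33 ± 0.19 for ARG3 and 0.56 ± 0.11 for ARG7. ARG4 (-0.68 ± 0.16, adjusted p = 0.0480) fell in the swp82 deletion, a call that was lost without swp82 deletion replicate 2 or 3 or any 1 wild-type library (adjusted p up to 0.177), with edgeR (0.0545) and with a pseudocount of 5 (0.0503).

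Lysine and aromatic genes were led by other members. Of 7 lysine genes, 2 were called higher and 3 lower in the snf5 deletion, 0 higher and 3 lower in the snf2 deletion and 0 in the swp82 deletion by limma (3 at an unadjusted p under 0.05, 0 by edgeR, 1 by DESeq2 and, with the replicate block, LYS12 at 0.0386). The shares of all genes called were 29.3%, 27.7% and 3.49% by limma. In the swp82 deletion the share was 8.78% by DESeq2 and 13.5% with the replicate block. The 5 calls in the snf5 deletion became 1 to 3 with any 1 of the 6 libraries left out, and 1 without snf5 deletion replicate 2. The homocitrate synthase gene LYS20 stood at 76.8 ± 7.20 in the snf2 deletion, against 274 ± 14.8 in the wild type (-1.82 ± 0.26, limma adjusted p = 0.000379). LYS12 (-0.52 ± 0.053) and LYS9 (-0.50 ± 0.062) were lower in that strain too. Of 12 aromatic genes, 4 were called higher and 1 lower in the snf5 deletion, beside 14.8% and 14.5% of all genes, the 4 being TRP5 (0.36 ± 0.059), TRP1 (0.34 ± 0.063), TRP3 (0.37 ± 0.083) and TRP2 (0.31 ± 0.078). In the snf2 deletion 1 was higher and 3 were lower, beside 13.6% and 14.1% of all genes, led by ARO1 (-0.85 ± 0.071, adjusted p = 7.37e-06) and ARO4 (-0.83 ± 0.14, adjusted p = 0.00124). In the swp82 deletion 0 of 12 were called by limma (3 at an unadjusted p under 0.05, 0 by edgeR and 2 by DESeq2). Of all genes, 3.49% were called there by limma and 8.78% by DESeq2. With the replicate block 2 were higher and 1 lower, beside 6.77% and 6.68% of all genes, the lower one being ARO1 (limma adjusted p = 0.0221).

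**Figure D5:**
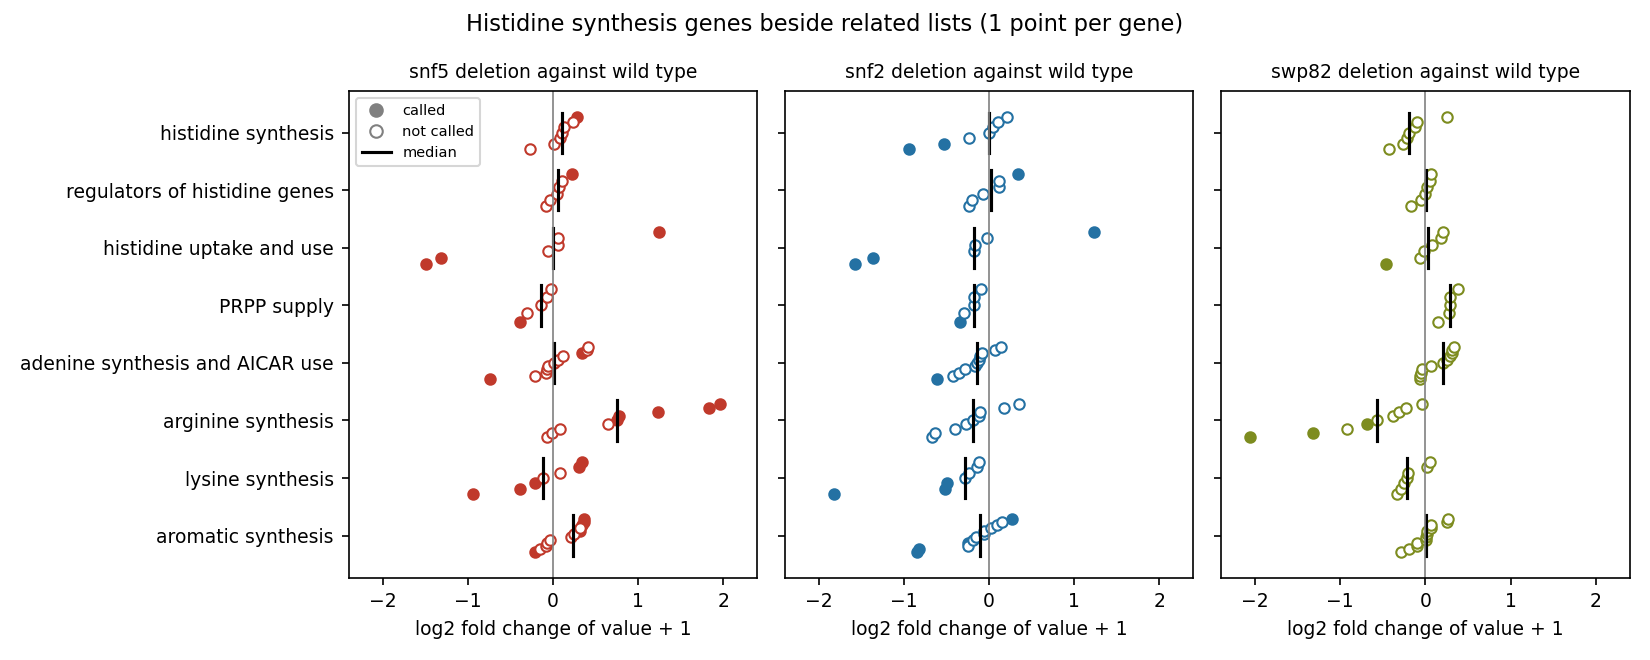
Log2 fold change against the wild type of every gene of the histidine list and 7 related lists in the snf5, snf2 and swp82 deletions; filled points passed an adjusted p of 0.05 and the black bar is the list's median. The medians of the histidine genes are 0.11, -0.00055 and -0.19, and those of the arginine genes 0.76, -0.19 and -0.57.

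The genes whose pattern over the 12 libraries was most like that of a member were sought among all genes tested, with Pearson r on log2 values as the measure. For HIS4 they were SHM2 (r = 0.97), SAM3 (0.95) and ARO4 (0.94), and for HIS1 they were GCN4 (0.95), YMC1 (0.94) and COS10 (0.94). HIS3 was most like ARG7 (0.93) and LYS1 (0.92). HIS2 was closest to PST2, CUE5 and CKI1 (all 0.96), and HIS6 to RPC17 (0.96), NOP6 (0.96) and NOP16 (0.95). HIS7 was closest to BIO2 (0.93), IZH4 (0.90) and OLE1 (0.88), and HIS5, the least matched, to SUC2 (0.88), NDT80 (0.86) and COA2 (0.86). The mean profile of the 6 members other than HIS3 was most like YGL039W and IZH4 (both 0.91), YLR036C (0.89), PHO13 and BIO2 (both 0.88). Without replicate 3 of the snf5 deletion the values for single members were 0.82 or more, and those for the mean profile were 0.68 (YLR036C) to 0.90 (IZH4). These values describe libraries that share strains, and the highest of 5820 genes is high by selection.

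Of 14 protein-coding neighbours of the members, 0 were called higher and 1 lower with SNF5 deleted, 1 and 3 with SNF2 deleted, and 1 and 0 with SWP82 deleted, beside the shares of all genes of 14.8% and 14.5%, 13.6% and 14.1%, and 1.41% and 2.08%. Without snf5 deletion replicate 3 the first pair became 2 and 1. With SWP82 deleted the pair became 0 and 0 without any 1 library except swp82 deletion replicate 1. It became 2 and 1 without that replicate, and 2 and 0 with the replicate block, beside 6.77% and 6.68% of all genes. The block added DED1 (limma adjusted p = 0.0301). HIS4 fell in the snf2 deletion while its neighbours RRP7 (-0.065 ± 0.098) and BIK1 (-0.041 ± 0.11) were not called. Upstream of HIS1, the purine-cytosine permease gene FCY2 was lower in the snf5 (-1.04 ± 0.20, limma adjusted p = 0.00251) and snf2 deletions (-1.11 ± 0.20, adjusted p = 0.00187), and GIP2, downstream, was not called. ARO4, which lies 416 bases upstream of HIS7 on the same strand, fell in the snf2 deletion while HIS7 had a log2 fold change of -0.00055. DED1, downstream of HIS3, was lower in the snf2 deletion (-0.30 ± 0.068, adjusted p = 0.00717; 0.0517 with total-count scaling), and MRM1, which starts 237 bases from HIS3 in the other direction, was not called. PRM5, whose start faces away from that of HIS5 at 1358 bases, was higher without SNF2 (0.70 ± 0.12, adjusted p = 0.00134) and without SWP82 (0.55 ± 0.12, 0.0327), the second call being lost without swp82 deletion replicate 2 or 3 or any 1 wild-type library (adjusted p up to 0.122) and with total-count scaling (0.0504).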

How the data were processed

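RNA was measured in 12 libraries of yeast, 3 each of a snf5, snf2 and swp82 deletion and a wild type, grouped and numbered by their titles. Per the labels' protocols, extraction used hot phenol, and the mRNA libraries keep the strand. Build sacCer3 and the tools edgeR 3.8.6, Bowtie2 2.1.0 and TopHat2 2.0.10 come from the submitters' processing notes; of the counting tool, its strand setting and the annotation, the sources used here name none. The authors deposited a normalised signal, which behaves as CPM divided by a TMM factor: 100% of values in each library were whole multiples of the value of 1 read (0.0801 to 0.118; tolerance 0.05 of a read). A second deposited table holds the authors' group means of that signal for 506 genes.

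The deposited signal was tested with limma 3.58.1 (R 4.3.3, trend option) on log2(value + 1) over all 12 libraries with a term for the strain. Genes needed a value of 1 or more in 3 libraries or more (5820 of 5935). Changes of low genes are understated on this scale. A gene was called where its p (two-sided), adjusted over all 5820 genes by Benjamini-Hochberg, was under 0.05. Alternatives were edgeR 4.0.16 (quasi-likelihood test, which called 1715 genes with SNF5 deleted, 1647 with SNF2 deleted and 199 with SWP82 deleted, each against the wild type) and DESeq2 1.42.0 on the recovered reads, other pseudocounts, filters and scalings, a replicate block, a fit of the 2 strains alone, and each library left out in turn. Correlations were also taken without replicate 3 of the snf5 deletion, a choice made after seeing the data. The fit was tested on simulated data drawn independently for each library, without a replicate effect shared between strains or a strain of wider spread. That test therefore does not show how the fit behaves with either. Total-count scaling moved the median of all genes by up to 0.21 (snf2 against swp82 deletion) and the split of calls to 1367 higher and 549 lower in the snf5 deletion, 1837 and 468 in the snf2 deletion and 49 and 268 in the swp82 deletion, against 862 and 842, 792 and 820, and 82 and 121.

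Same-numbered libraries of the swp82 deletion and the wild type had r of 0.255 to 0.599 between their deviations from the strain mean. With the snf5 deletion r was 0.116 to 0.660. In neither comparison was the same-numbered library the best match of every library, so the numbers pair the libraries only loosely. The block is given beside the results it changes there, and the pairing comes from the data, not the labels. Across all comparisons of strains, r between same-numbered libraries was 0.401 to 0.660 for replicate 1. It was 0.0521 to 0.377 for replicate 2 and -0.104 to 0.423 for replicate 3. These deviations were taken over all genes tested, and their cause was not tested. No pair of replicates agreed within sampling noise (chi-square over degrees of freedom from 2.97 to 79.3), so each library counts as 1.

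The members and gene lists were chosen with earlier results of these data known. Named genes were all 7 members, lists of up to 6 genes whole, up to 4 called genes with the smallest p from longer lists (or the gene with the smallest p), the nearest genes by correlation and the annotated neighbours. Identifiers were matched to RefSeq assembly R64 (5685 of 5935). URA3 and MET17 were not analysed here, and 1 gene that the naming rule gives and 1 sequence are not reported here.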

Additional observations from a re-analysis of the deposited data

How the results depend on the processing

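Of the 12 calls over 42 pairs of a member and a comparison, 8 were kept under each of the 9 alternatives other than leaving out a library, and 6 of these also without any 1 library: HIS4 in the snf2 deletion and HIS2 in the snf5 deletion against the wild type, HIS3 and HIS2 in the snf5 against the swp82 deletion, and HIS5 and HIS2 in the snf2 against the swp82 deletion. The number of members called became 4 in the snf2 deletion against the wild type in a fit of those 2 strains alone, 2 against the wild type in the swp82 deletion with DESeq2, with total-count scaling and with the replicate block, against 0, and 1 between the snf5 and snf2 deletions in a fit of those strains alone. Leaving out 1 library gave 1 to 2 members called in the snf5, 1 to 2 in the snf2 and 0 to 2 in the swp82 deletion, each relative to the wild type. It gave 0 to 3 between the snf5 and snf2 deletions, 2 to 4 between the snf5 and swp82 deletions, and 2 to 4 between the snf2 and swp82 deletions. The replicate block ended none of the 12 calls and added 5. In the comparisons where same-numbered libraries did not deviate together in every pair, the added calls were HIS4 between the snf5 and snf2 deletions (limma adjusted p = 0.0144) and HIS6 between the snf2 and swp82 deletions (0.0450). The cause of these moves was not tested.

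Fold changes that turned sign were small and not called. HIS7 in the snf2 deletion against the wild type was 0.0012 with edgeR, 0.14 with total-count scaling and 0.047 with upper-quartile factors, and -0.042 to 0.033 with 1 library left out. With total-count scaling HIS4 and HIS6 between the snf5 and swp82 deletions were 0.085 and 0.049, and HIS6 between the snf2 and swp82 deletions was 0.0093. With 1 library left out, the ranges against the wild type were -0.21 to 0.13 for HIS1, -0.011 to 0.24 for HIS7 and -0.060 to 0.16 for HIS5 in the snf5 deletion, -0.029 to 0.11 for HIS6 in the snf2 deletion and -0.16 to 0.0087 for HIS1 in the swp82 deletion. Between the snf5 and snf2 deletions they were -0.0047 to 0.24 for HIS6 and -0.010 to 0.24 for HIS7. Between the snf5 and swp82 deletions they were -0.36 to 0.078 for HIS4, -0.21 to 0.036 for HIS6 and -0.11 to 0.23 for HIS1.

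Over all genes, 1612 called in the snf2 deletion against the wild type became 2475 in a fit of those strains alone. In the swp82 deletion 203 became 511 with DESeq2, 317 with total-count scaling, 131 in a fit of the 2 strains alone and 783 with the replicate block, and 63 to 625 with 1 library left out. Between the snf5 and snf2 deletions 726 became 225 with those strains alone, and 322 to 908 with 1 library left out, and between the snf5 and swp82 deletions 2438 became 1314 with those strains alone. The split of calls for the swp82 deletion was 279 higher and 232 lower with DESeq2, against 82 and 121. With total-count scaling it was 246 and 544 between the snf5 and snf2 deletions (against 337 and 389), 2282 and 599 between the snf5 and swp82 deletions (1189 and 1249) and 2937 and 577 between the snf2 and swp82 deletions (1265 and 1268), the last being 1611 and 1015 with upper-quartile factors. With 3 libraries a strain, the SE of a member's fold change was 0.065 (HIS2) to 0.21 (HIS4), which sets the size of difference that can be called.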
